A study of Mus musculus with 6 samples.

Results

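The matrix metalloproteinases (Mmp), the tissue inhibitors of metalloproteinases (Timp), the Adamts proteases and the lysyl oxidases (Lox and Loxl) of mouse heart were taken from the RNA-seq table by gene name alone. The rule kept every gene named Mmp, Timp, Adamts or Loxl plus a number, and Lox itself, and it found 47 of the 26881 genes in the table. These were 19 Mmp, 4 Timp, 19 Adamts and 5 Lox family genes. Mmps are zinc-dependent enzymes, made as inactive precursors and secreted or held at the cell surface, which cut collagens, gelatin and other matrix proteins. Timps bind the active site of these enzymes and block it. Adamts proteases are secreted, and some remove the ends of procollagens while others cleave proteoglycans such as versican. Lysyl oxidases oxidise lysines of collagen and elastin, the step from which the cross-links between fibres form. In the heart these genes are used largely by fibroblasts, vessel cells and macrophages rather than by cardiomyocytes, and their balance is known to shape the matrix during growth and after injury.

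Hearts of 3 WT and 3 Cfp1-cKO samples of C57BL/6 mice, 2 weeks old, were compared. The Cfp1-cKO genotype was Myh6-Cre: Cfp1 flox/flox and is labelled CXXC1 null, whereas the Cre and floxed alleles of the WT samples are not given in the sources used here. Myh6 drives Cre in cardiomyocytes, so the fibroblasts, vessel cells and macrophages of these hearts were not targeted by the design. No source says if 1 or more hearts went into a sample, and the p-values then cover only the spread between these 6 samples, which may be technical. In bulk RNA of a whole heart, more cells of a type and more RNA per cell cannot be told apart.

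Values are FPKM, fragments per kilobase of exon scaled to the library's total, so levels can be compared between genes per length. Library totals lay between 16672652 and 22700811 fragments, and 1 fragment in a gene of 2 kb of exon was worth 0.0220 to 0.0300 FPKM. Cxxc1, the targeted gene, was at 9.66, 12.9 and 10.03 FPKM in WT samples against 8.02, 9.94 and 8.74 FPKM in Cfp1-cKO samples, and its log2 fold change of -0.26 was not called (adjusted p = 0.249, limma), nor was that of -0.66 after the scaling described further on (adjusted p = 0.0571, limma). The sum of 10 cardiomyocyte markers was between 8789 and 17585 FPKM in all 6 libraries, so the labelled tissue was present in each. The 3 Cfp1-cKO libraries stood apart in another respect. The sum of 12 lung epithelial markers was 1.16 to 4.92 FPKM in WT and 3235 to 4907 FPKM in Cfp1-cKO libraries, all 12 were called higher, and Cldn18 and Lamp3 were at 0 in every WT library. No Cfp1-cKO library was without this signal, so no comparison of the genotypes can be given without it. Other marker lists moved less. The sum of 9 macrophage markers was 89.3 to 95.5 FPKM in WT and 485 to 832 FPKM in Cfp1-cKO libraries, with 4 of 8 tested called higher. Most of this difference was Lyz2, a lysozyme gene, at 36.0 to 56.0 FPKM in WT and 387 to 771 FPKM in Cfp1-cKO libraries, and the other 8 summed to 38.7 to 53.3 and 61.0 to 98.1 FPKM. Over Cfp1-cKO 1, 2 and 3 Lyz2 was at 387, 548 and 771 FPKM, while the other 8 summed to 98.1, 93.0 and 61.0 FPKM. The cells that Lyz2 came from were not tested. In addition 3 of 4 tested alveolar macrophage markers were called higher (sum of 24.3 to 46.0 against 63.6 to 138 FPKM). Car4 of that list was not called, at 23.9 to 42.1 FPKM in WT and 23.5 to 41.1 FPKM in Cfp1-cKO libraries. Fibroblast markers summed to 316 to 441 FPKM in WT and 511.4 to 843 FPKM in Cfp1-cKO libraries, with 1 of 9 called. Mesothelial markers summed to 3.82 to 5.10 against 12.4 to 29.7 FPKM with 3 of 4 tested called, and endothelial markers to 114 to 147 against 155 to 222 FPKM with 2 of 6 called. Smooth muscle markers (53.3 to 216 against 129 to 173 FPKM, 1 of 4 called) and neutrophil markers (3.07 to 26.2 against 9.43 to 24.3 FPKM, 0 of 3 called) overlapped between the genotypes, and cartilage markers were low throughout (1.19 to 2.94 against 3.26 to 5.98 FPKM, 1 of 1 tested called). Only genes averaging 1 FPKM or more across the 6 libraries were tested. Krt19 and Upk3b of the mesothelial list averaged 0.491 and 0.622 FPKM in WT samples. Ear2 and Atp6v0d2 of the alveolar macrophage list averaged 0.208 and 0.0502 FPKM there, and Comp of the cartilage list 0.6905 FPKM. These genes, and the lung epithelial markers other than Abca3, were tested only through their Cfp1-cKO values. The share called in these lists is partly set by that rule. In the cardiomyocyte list 4 of 10 were called lower. The part of these cell types in the results below was not tested.

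The 4 inhibitor genes differed in the sequence before their RefSeq starts. Promoters of 29 of the 47 genes (61.7%) were matched by symbol in a RefSeq table on GRCm38.p6, too few for a comparison over the whole list. The 4 Timp promoters are shown because 2 of these genes were called higher and 2 were not. Each is the 250 bases before the RefSeq start, 5′ to 3′ on the gene's strand, with CG dinucleotides in capitals. Timp1 is chrX:20869916-20870165 on the plus strand, Timp2 is chr11:118355412-118355661 on the minus strand, Timp3 is chr10:86300162-86300411 on the plus strand and Timp4 is chr6:115252206-115252455 on the minus strand.
Timp1: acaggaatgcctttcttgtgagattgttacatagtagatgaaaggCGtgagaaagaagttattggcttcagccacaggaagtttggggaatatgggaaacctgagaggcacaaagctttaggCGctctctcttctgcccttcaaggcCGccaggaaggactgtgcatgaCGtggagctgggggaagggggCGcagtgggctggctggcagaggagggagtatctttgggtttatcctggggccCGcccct
Timp2: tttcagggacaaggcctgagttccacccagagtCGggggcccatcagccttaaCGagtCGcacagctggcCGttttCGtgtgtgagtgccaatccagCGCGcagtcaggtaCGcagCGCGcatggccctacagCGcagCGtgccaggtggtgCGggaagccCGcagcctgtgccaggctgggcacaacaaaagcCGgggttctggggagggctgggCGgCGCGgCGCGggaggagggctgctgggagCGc
Timp3: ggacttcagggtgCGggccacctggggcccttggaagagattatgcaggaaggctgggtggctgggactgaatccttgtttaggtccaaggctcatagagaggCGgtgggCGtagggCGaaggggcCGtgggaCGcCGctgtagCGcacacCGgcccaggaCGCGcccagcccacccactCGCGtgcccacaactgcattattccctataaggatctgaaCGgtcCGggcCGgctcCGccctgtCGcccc
Timp4: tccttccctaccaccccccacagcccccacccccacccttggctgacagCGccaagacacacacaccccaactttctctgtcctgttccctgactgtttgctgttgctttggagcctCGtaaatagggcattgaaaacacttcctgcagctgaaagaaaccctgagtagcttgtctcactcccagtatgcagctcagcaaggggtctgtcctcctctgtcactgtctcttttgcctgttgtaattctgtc
Timp2 held 21 CG and Timp3 held 18, both above the upper quartile of 16 over all promoters in the table. Timp1 held 6, which is the median of all promoters, and Timp4 held 2, the lower quartile. The called Timp1 and Timp2 held 6 and 21, and a part of the CG content in the calls was not tested. In the deposited coordinates Timp2 reaches 118355740 and Timp3 starts at 86300372. The Timp2 window thus lies inside that gene, and the Timp3 window does in part.

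A second set is shown because 6 Mmp genes lie side by side on the plus strand of chromosome 9, in the order Mmp13, Mmp12, Mmp3, Mmp10, Mmp8 and Mmp27 from 7272514 to 7581885 on GRCm38, and of these Mmp3 alone reached a mean of 1 FPKM. The last 100 bases before the RefSeq start are printed for 4 of them, with capitals for TGACTCA or TGAGTCA, the letters of an AP-1 site, and for TATAAA. AP-1 is a transcription factor, a dimer of Fos and Jun proteins, long known to act on Mmp promoters. Mmp13 is chr9:7272414-7272513, Mmp3 is chr9:7445722-7445821, Mmp10 is chr9:7502242-7502341 and Mmp8 is chr9:7558329-7558428.
Mmp13: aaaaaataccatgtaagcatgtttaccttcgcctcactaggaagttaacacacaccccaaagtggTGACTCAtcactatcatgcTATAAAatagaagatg
Mmp3: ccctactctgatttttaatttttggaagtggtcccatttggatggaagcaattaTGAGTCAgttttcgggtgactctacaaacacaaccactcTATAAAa
Mmp10: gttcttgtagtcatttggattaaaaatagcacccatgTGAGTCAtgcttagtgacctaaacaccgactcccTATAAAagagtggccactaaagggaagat
Mmp8: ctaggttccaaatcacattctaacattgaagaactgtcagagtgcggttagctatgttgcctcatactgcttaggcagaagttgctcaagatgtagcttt
The AP-1 letters began 35 bases before the start in Mmp13, 46 in Mmp3 and 63 in Mmp10, and Mmp8 and Mmp27 had neither motif in their 250 bases. Searched on both strands over 250 bases, TGACTCA or TGAGTCA was in 4.46% and TATAAA in 12.4% of all promoters in the table. The 2 motifs do not overlap in the sequences shown. Of the 29 matched genes, 4 held the AP-1 letters, the fourth being Mmp12 at 1 of its starts. A match is a description of letters and not a measured site. Mmp3 was the 1 gene of this cluster that passed the filter, and Mmp13 and Mmp10, with the same letters, were at or below 0.250 and 0.0348 FPKM in every library.

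Of the 47 genes, 26 averaged 1 FPKM or more and were tested with limma on log2(FPKM + 1), a scale that understates the changes of low genes. The average was over all 6 libraries. Loxl3 and Mmp28, with WT means of 0.859 and 0.928 FPKM, therefore passed through their Cfp1-cKO values. A call needed an adjusted p (Benjamini-Hochberg, over all 11017 tested genes) under 0.05 together with a log2 fold change beyond 0.5 in either direction. In Cfp1-cKO hearts 7 of the 26 were called higher: Timp1, Timp2, Loxl1, Loxl2, Adamts2, Adamts10 and Mmp23. This was 26.9% of those tested, beside 21.1% of all tested genes called higher, so the count is near that of the table as a whole. With limma 0 of the 26 were called lower, 0 were lower at an unadjusted p below 0.05 and 0 were called lower with voom. Over all tested genes 1.68% were called lower with limma on FPKM and 1.52% with voom, limma's method for fragment counts, by which 23.6% were called higher. The log2 fold change was above 0 for 24 of the 26, and Adamts3 and Adamts7 were below 0. Their median was 0.64 beside 0.35 for all tested genes, of which 83.6% were above 0. By family the median was 0.67 for Timp, 0.60 for Mmp, 0.28 for Adamts and 0.79 for Lox genes. All 3 Cfp1-cKO values were above all 3 WT values for 11 of the 26 (42.3%), beside 46.4% of all tested genes.

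The median log2 fold change of 0.35 over all genes means that FPKM as deposited set most genes higher in Cfp1-cKO libraries, so values are also given after scaling by the median of ratios, with a median over all genes of 0.00. After scaling Timp1 was the 1 gene of the 26 called higher (3.85%, beside 3.74% of all tested genes), and 0 were called lower (beside 3.25%). The median of the 26 was then 0.34, with 0.26 for Timp, 0.35 for Mmp, 0.04 for Adamts and 0.45 for Lox genes. The direction turned below 0 for Timp3, Timp4, Mmp2, Adamts5, Adamts6 and Adamts9, so that 18 of the 26 were above 0 and 8 below. Of the libraries, Cfp1-cKO 1 held the lowest Cfp1-cKO value for 19 of the 26 genes, and WT 3 held the highest WT value for 17.

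**Figure D1:**
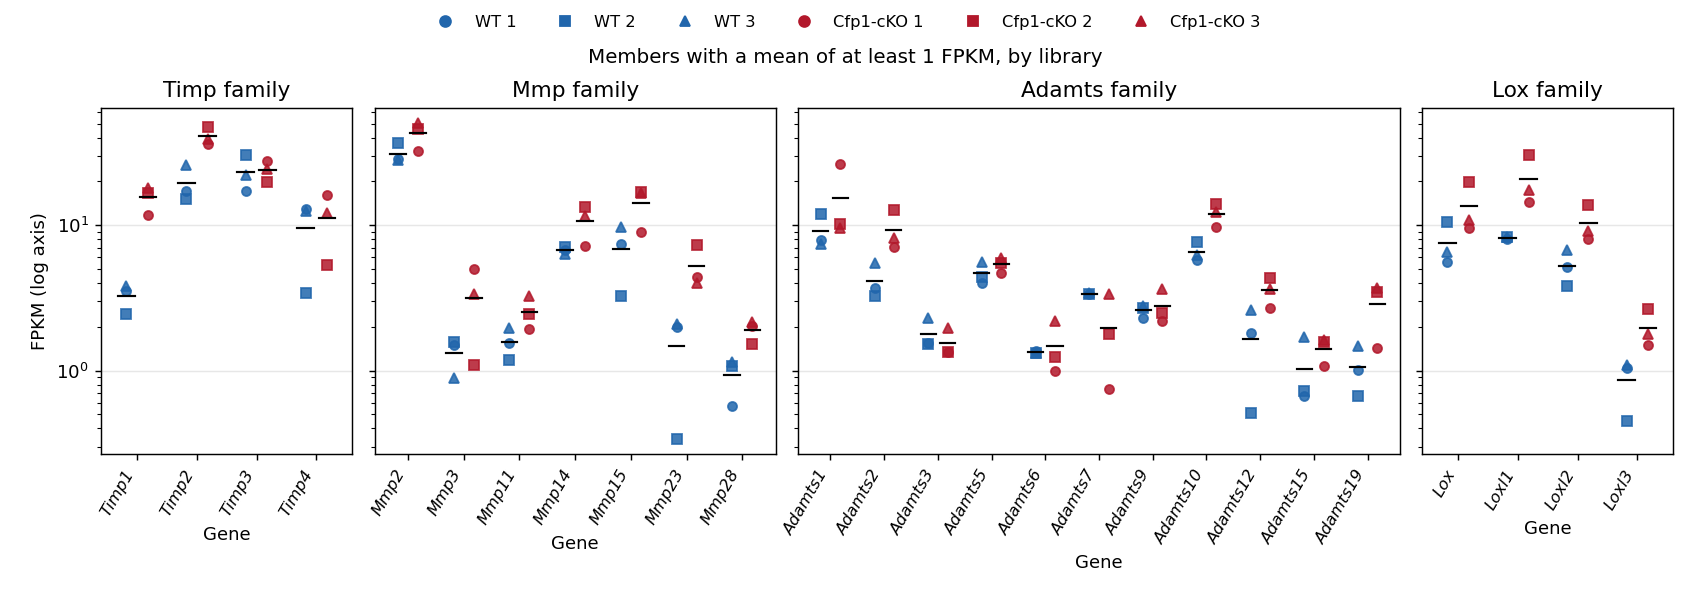
FPKM (log axis) of the 26 tested genes by family, with 1 point for each library (blue WT, red Cfp1-cKO, marker shape for the replicate number) and a black line at each group's mean. The red points lie above all blue points for 11 genes, Timp1 among them (11.8 to 18.1 against 2.45 to 3.81 FPKM), and overlap the blue ones for the other 15.

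**Figure D2:**
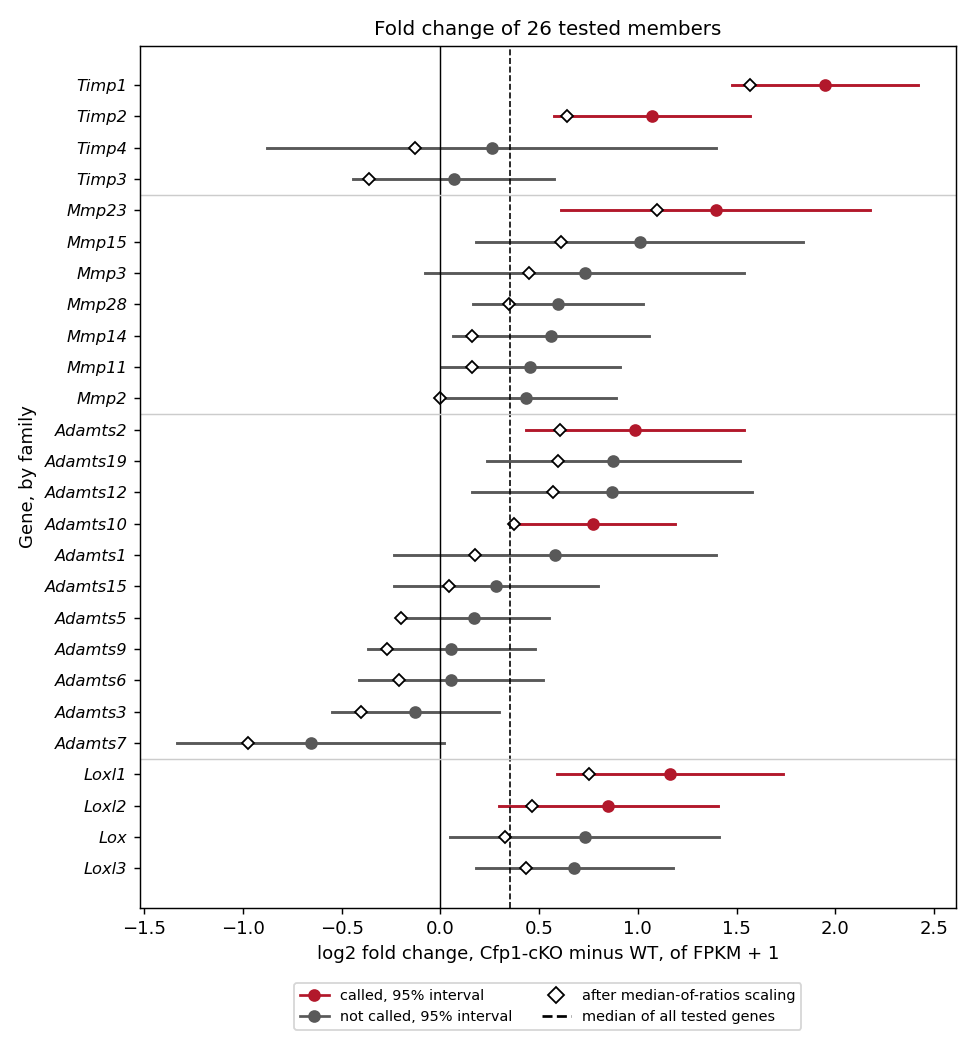
Log2 fold change of Cfp1-cKO over WT on the log2(FPKM + 1) scale for the 26 tested genes, by family, with limma's 95% interval (red, called; grey, not called). Open diamonds are the values after median-of-ratios scaling and the dashed line is the median of all tested genes, 0.35; Timp1 stands furthest to the right at 1.95 and Adamts7 furthest to the left at -0.66.

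Among the inhibitors, Timp1 and Timp2 rose in Cfp1-cKO hearts and Timp3 and Timp4 were not called. Timp1, the inhibitor known to be induced in injured tissue, was at 3.52, 2.45 and 3.81 FPKM in WT samples against 11.8, 16.8 and 18.1 FPKM in Cfp1-cKO samples. The lowest Cfp1-cKO value was far above the highest WT value, and the ratio of the group means was 4.76. On the log2 scale Timp1 differed by 1.95 (standard error 0.21, adjusted p = 0.00124, limma), and 1.57 after scaling (adjusted p = 0.00238, limma). Timp1 was called in all 15 alternatives of the fit, with a log2 fold change between 1.57 and 2.24, also with any 1 library left out. In the same Cfp1-cKO libraries the lung epithelial markers summed to 4556, 3235 and 4907 FPKM, Lyz2 was at 387, 548 and 771 FPKM and the other 8 macrophage markers summed to 98.1, 93.0 and 61.0 FPKM. Their part in the rise of Timp1 was not tested. The counts behind Timp1 were 41 to 289 fragments, since its exons span 888 bases.

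Timp2, which blocks Mmps and also helps Mmp14 to activate the precursor of Mmp2, was at 17.1, 15.2 and 26.01 FPKM in WT samples against 36.4, 47.7 and 39.1 FPKM in Cfp1-cKO samples. The genotypes did not overlap. The difference was 1.07 on the log2 scale (standard error 0.22, adjusted p = 0.0158, limma), and 0.64 after scaling, where the call was lost (adjusted p = 0.0945, limma). It was also lost without WT 1 (adjusted p = 0.0578, limma) and without Cfp1-cKO 2 (adjusted p = 0.0687, limma).

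Timp3, the inhibitor that binds to the matrix itself, was at 17.2, 30.4 and 22.1 FPKM in WT samples against 27.5, 19.9 and 24.4 FPKM in Cfp1-cKO samples. The values of the genotypes lay among each other, and the log2 fold change was 0.07, with a 95% interval from -0.44 to 0.58, and -0.36 after scaling. Timp4, the inhibitor best known from the heart, was at 12.9, 3.41 and 12.5 FPKM in WT samples against 16.1, 5.29 and 12.2 FPKM in Cfp1-cKO samples. Library 2 of each genotype was low, and the interval of the log2 fold change of 0.26 ran from -0.88 to 1.40. The intervals of Timp3 and Timp4 do not show that these genes were equal in the genotypes. The difference between Timp1 and Timp3 was not tested as such.

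The 4 inhibitors together came to 50.7, 51.4 and 64.4 FPKM in WT and to 91.8, 89.6 and 93.8 FPKM in Cfp1-cKO samples. Timp2 and Timp3 made up most of this sum in every WT library. Timp1 supplied 6.95%, 4.76% and 5.92% of it in WT and 12.8%, 18.7% and 19.3% in Cfp1-cKO samples, while the share of Timp3 was 33.9%, 59.1% and 34.3% in WT and 30.0%, 22.2% and 26.04% in Cfp1-cKO samples. Shares within a library do not depend on the scaling. Of the 4 Timp genes, 3 overlap a synapsin gene on the other strand, Timp1 with Syn1, Timp3 with Syn3 and Timp4 with Syn2, and the counting is not stated to use strand. Timp1 shares no exon base with Syn1, Timp3 shares 1733 (21.3% of its exon bases) with Syn3, which was at or below 0.0633 FPKM, and Timp4 shares 90 with Syn2.

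**Figure D3:**
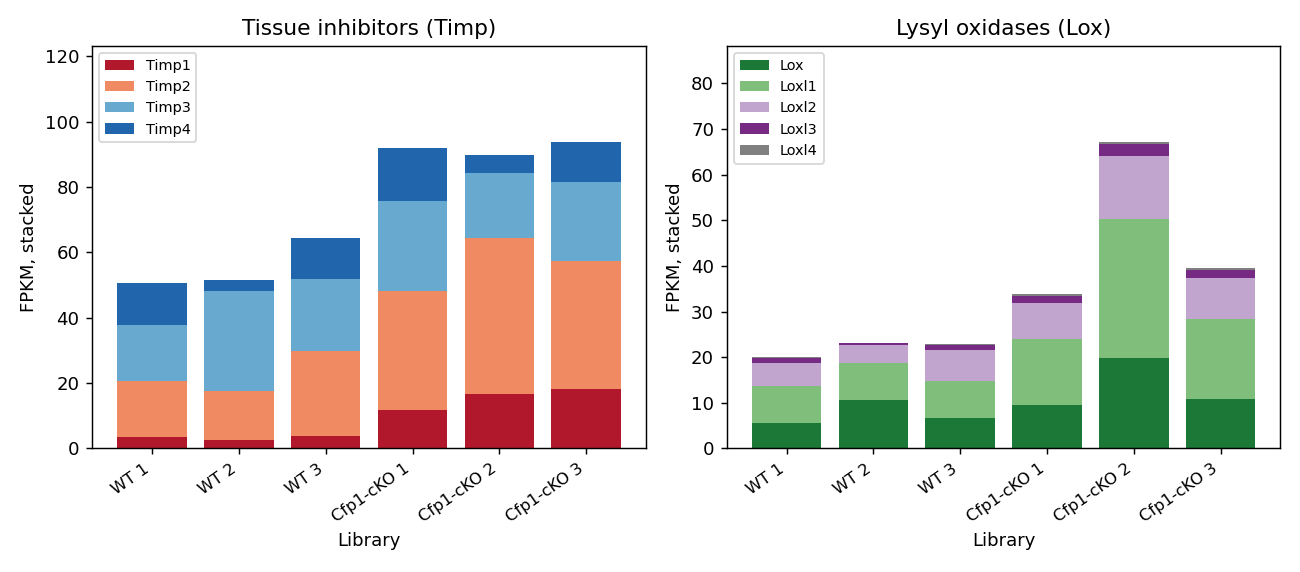
Stacked FPKM of the 4 Timp genes (left) and the 5 Lox genes (right) in each library, on linear axes from 0. The Timp columns reach 50.7 to 64.4 FPKM in WT and 89.6 to 93.8 FPKM in Cfp1-cKO libraries with a wider Timp1 band, and the Lox column of Cfp1-cKO 2 reaches 67.2 FPKM, above all others.

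Of the lysyl oxidases Loxl1 and Loxl2 rose, and the values of Lox and Loxl3 did not pass the test. Loxl1, the family member tied to elastic fibres, was at 8.10, 8.27 and 8.32 FPKM in WT samples against 14.3, 30.3 and 17.4 FPKM in Cfp1-cKO samples. The WT values were nearly alike and all lay below the lowest Cfp1-cKO value, and Cfp1-cKO 2 stood above the other two. Loxl1 rose by 1.16 on the log2 scale (standard error 0.25, adjusted p = 0.0185, limma), and 0.75 after scaling (adjusted p = 0.0955, limma). Without WT 1 the call was lost (adjusted p = 0.0581, limma).

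Loxl2, an oxidase active on collagen IV, was at 5.13, 3.83 and 6.78 FPKM in WT samples against 8.01, 13.9 and 9.11 FPKM in Cfp1-cKO samples. Again the genotypes did not overlap and Cfp1-cKO 2 was the highest. Loxl2 differed by 0.85 (standard error 0.24, adjusted p = 0.039, limma), the highest adjusted p of the 7 calls, and by 0.46 after scaling (adjusted p = 0.223, limma). Leaving out WT 1, WT 2, Cfp1-cKO 2 or Cfp1-cKO 3 ended the call, with adjusted p of 0.1002, 0.0805, 0.137 and 0.0773 (limma), as did a lower filter, no filter and a library total without mitochondrial and haemoglobin genes.

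Lox, the founding member, was at 5.59, 10.6 and 6.56 FPKM in WT samples against 9.62, 19.9 and 10.9 FPKM in Cfp1-cKO samples. WT 2 lay above Cfp1-cKO 1, so the genotypes overlapped, and the log2 fold change of 0.73 was not called (adjusted p = 0.0962, limma). Library 2 was the highest of its genotype on both sides. Loxl3 was at 1.04, 0.45 and 1.09 FPKM in WT samples against 1.49, 2.65 and 1.78 FPKM in Cfp1-cKO samples, which did not overlap, and its log2 fold change of 0.68 was close to the threshold (adjusted p = 0.0537, limma). With voom and without the trend in the variances Loxl3 was called. It shares 535 exon bases (11.6%) with Htra2 on the other strand.

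The 5 lysyl oxidase genes summed to 19.9, 23.2 and 23.0 FPKM in WT and to 33.9, 67.2 and 39.6 FPKM in Cfp1-cKO samples, a ratio of the means of 2.13, or 1.55 after scaling. Cfp1-cKO 2 held the highest and Cfp1-cKO 1 the lowest Cfp1-cKO value for all 4 tested genes. The fibroblast marker sum was also highest in Cfp1-cKO 2, at 843 FPKM beside 553 and 511.4 in Cfp1-cKO 1 and 3. Pdgfra alone of that list was lowest there, at 8.24 beside 9.09 and 11.6 FPKM. Mesothelial (15.1, 29.7 and 12.4 FPKM), endothelial (166, 222 and 155 FPKM), neutrophil and cartilage sums were highest in Cfp1-cKO 2 too. The sum of 9 macrophage markers and the alveolar macrophage, smooth muscle and cardiomyocyte sums were highest in Cfp1-cKO 3. Without Lyz2 the other 8 macrophage markers were lowest there, at 61.0 FPKM beside 98.1 and 93.0 FPKM in Cfp1-cKO 1 and 2. Lung epithelial markers summed to 4556, 3235 and 4907 FPKM in Cfp1-cKO 1, 2 and 3, and without Scgb1a1, the secretory gene of airway club cells, to 1651, 2829 and 4236 FPKM. The part of these cell types in the Lox values was not tested.

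Among the metalloproteinases Mmp23 was the 1 gene of 7 tested that was called, beside 21.1% of all tested genes called higher. The gelatinase Mmp2 was by far the most abundant. Mmp23, a small membrane-held family member, was at 2.00, 0.34 and 2.09 FPKM in WT samples against 4.39, 7.33 and 4.01 FPKM in Cfp1-cKO samples. The genotypes did not overlap and WT 2, with 15 fragments, was well below the other WT libraries. Mmp23 rose by 1.39 (standard error 0.34, adjusted p = 0.0268, limma), or by 1.10 without a call after scaling (adjusted p = 0.107, limma). The call ended when Cfp1-cKO 1, 2 or 3 was left out, with adjusted p of 0.0528, 0.103 and 0.0530 (limma), and with no filter.

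Mmp2, which degrades gelatin and collagen IV, was at 28.6, 36.6 and 28.2 FPKM in WT samples against 32.5, 45.8 and 50.2 FPKM in Cfp1-cKO samples. WT 2 lay above Cfp1-cKO 1, and the log2 fold change of 0.43 (adjusted p = 0.128, limma) was -0.000273 after scaling. Mmp2 supplied 56.6%, 68.8% and 54.1% of the summed Mmp FPKM in WT and 50.6%, 49.6% and 53.2% in Cfp1-cKO samples. Mmp9, the other gelatinase, was between 0.0314 and 0.593 FPKM and below the filter.

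The membrane-type Mmps are held at the cell surface, where Mmp14 activates Mmp2. Mmp14 was at 6.76, 7.08 and 6.34 FPKM in WT samples against 7.16, 13.3 and 11.6 FPKM in Cfp1-cKO samples, with Cfp1-cKO 1 just above the highest WT value. Its log2 fold change was 0.56 (adjusted p = 0.0846, limma). Mmp15 was at 7.48, 3.25 and 9.80 FPKM in WT samples against 8.997, 17.0 and 16.7 FPKM in Cfp1-cKO samples, and here WT 3 lay above Cfp1-cKO 1. Mmp15 had the second largest log2 fold change of the Mmp genes, 1.01, with a wide interval from 0.18 to 1.84 (adjusted p = 0.0709, limma). Leaving out Cfp1-cKO 1 made the call for Mmp14 (adjusted p = 0.0304, limma), and leaving out WT 3 made it for Mmp15 (adjusted p = 0.0365, limma).

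Mmp28, or epilysin, was at 0.57, 1.07 and 1.15 FPKM in WT samples against 2.01, 1.52 and 2.16 FPKM in Cfp1-cKO samples. These did not overlap, and the log2 fold change of 0.60 was next to the threshold (adjusted p = 0.0517, limma), with a call by voom and without the trend. Mmp28 shares 466 exon bases with the gene 1700020L24Rik on the other strand. Mmp3, a stromelysin that also activates other Mmp precursors, was at 1.49, 1.56 and 0.89 FPKM in WT samples against 4.99, 1.10 and 3.39 FPKM in Cfp1-cKO samples. Cfp1-cKO 2 lay within the WT range while the other two were above it, and the log2 fold change of 0.73 was not called (adjusted p = 0.143, limma). Without Cfp1-cKO 2 it was called, at 1.16 (adjusted p = 0.0381, limma). Mmp11 was at 1.55, 1.18 and 1.98 FPKM in WT samples against 1.92, 2.46 and 3.24 FPKM in Cfp1-cKO samples, with an overlap between WT 3 and Cfp1-cKO 1 and a log2 fold change of 0.46 (adjusted p = 0.112, limma). It shares 155 exon bases (5.58%) with Chchd10 on the other strand, which was at 10.8 to 14.7 FPKM in WT and 7.43 to 8.49 FPKM in Cfp1-cKO libraries.

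All 19 Mmp genes summed to 50.4, 53.2 and 52.2 FPKM in WT and to 64.2, 92.3 and 94.2 FPKM in Cfp1-cKO samples. The summed Timp over the summed Mmp FPKM was 1.00, 0.97 and 1.23 in WT and 1.43, 0.97 and 1.00 in Cfp1-cKO samples. This ratio, 1.07 ± 0.14 (SD, n = 3) in WT and 1.13 ± 0.26 (SD, n = 3) in Cfp1-cKO samples, overlapped and differed by less than its SD. Over the Mmp and Adamts sum together it was 0.61 ± 0.06 and 0.64 ± 0.08 (SD, n = 3 each).

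Of the Adamts proteases, Adamts2 and Adamts10 rose and 9 of the 11 tested were not called. Of all tested genes 21.1% were called higher, so this family did not stand out by its count. Adamts2, the main enzyme that removes the amino end of fibrillar procollagens, was at 3.73, 3.26 and 5.49 FPKM in WT samples against 7.07, 12.7 and 8.22 FPKM in Cfp1-cKO samples. The genotypes did not overlap and Cfp1-cKO 2 was the highest. Adamts2 rose by 0.99 on the log2 scale (standard error 0.24, adjusted p = 0.0263, limma), and 0.61 after scaling (adjusted p = 0.129, limma). It was not called without WT 1, WT 2, Cfp1-cKO 2 or Cfp1-cKO 3, with adjusted p of 0.0813, 0.0556, 0.0950 and 0.0591 (limma), or with no filter. Adamts3, which acts on procollagen as well, was at 1.56, 1.51 and 2.31 FPKM in WT samples against 1.35, 1.35 and 1.96 FPKM in Cfp1-cKO samples, with a log2 fold change of -0.13 and overlapping genotypes. Adamts14, the remaining procollagen enzyme, was below the filter.

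Adamts10, which binds fibrillin microfibrils, was at 5.78, 7.73 and 6.19 FPKM in WT samples against 9.65, 14.002 and 12.2 FPKM in Cfp1-cKO samples. All Cfp1-cKO values lay above WT. The difference on the log2 scale was 0.77 (standard error 0.18, adjusted p = 0.0236, limma), and 0.37 after scaling (adjusted p = 0.219, limma). It lost its call without WT 1, Cfp1-cKO 2 or Cfp1-cKO 3, with adjusted p of 0.0835, 0.101 and 0.0672 (limma). Adamts6, its closest relative, was at 1.36, 1.33 and 1.32 FPKM in WT samples against 1.00, 1.23 and 2.21 FPKM in Cfp1-cKO samples, so the Cfp1-cKO values lay on both sides of WT and the log2 fold change was 0.05.

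Adamts7 had the lowest log2 fold change of the 26 genes. This protease of cartilage oligomeric matrix protein was at 3.36, 3.34 and 3.39 FPKM in WT samples against 0.75, 1.79 and 3.36 FPKM in Cfp1-cKO samples. The WT values were nearly alike, and Cfp1-cKO 3 was at the WT level while the other Cfp1-cKO libraries were below it. The log2 fold change of -0.66 was not called (adjusted p = 0.123, limma), nor was that of -0.97 after scaling (adjusted p = 0.0674, limma). Without Cfp1-cKO 3 Adamts7 was called lower, at -0.98 (adjusted p = 0.0435, limma), as it was with library weights. Adamts12, related to Adamts7, was at 1.81, 0.51 and 2.59 FPKM in WT samples against 2.72, 4.37 and 3.64 FPKM in Cfp1-cKO samples. Its genotypes did not overlap, although Cfp1-cKO 1 and WT 3 were close, and the log2 fold change of 0.87 was not called (adjusted p = 0.0707, limma). Adamts19 was at 1.01, 0.67 and 1.49 FPKM in WT samples against 1.43, 3.48 and 3.72 FPKM in Cfp1-cKO samples, with a log2 fold change of 0.87 (adjusted p = 0.053, limma). WT 3 lay just above Cfp1-cKO 1, and Adamts19 was called without WT 3 (adjusted p = 0.0453, limma) or without Cfp1-cKO 1 (adjusted p = 0.0264, limma). Adamts12 was called without WT 3 (adjusted p = 0.0314, limma).

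The proteoglycan-cleaving Adamts proteases, 4 of 7 of which were tested, gave 0 calls, beside 21.1% of all tested genes called higher. In each of the 4 the genotypes overlapped. Adamts1, a versican- and aggrecan-cleaving enzyme, was at 7.92, 11.9 and 7.43 FPKM in WT samples against 26.2, 10.3 and 9.58 FPKM in Cfp1-cKO samples. Cfp1-cKO 1 alone stood above the WT range, and the log2 fold change of 0.58 had an interval from -0.23 to 1.40 (adjusted p = 0.228, limma) and was 0.14 without that library. Adamts5, its neighbour 55.1 kb away on chromosome 16, did not share this high value and was at 4.03, 4.38 and 5.62 FPKM in WT samples against 4.72, 5.46 and 5.94 FPKM in Cfp1-cKO samples (log2 fold change 0.17). Adamts9 was at 2.29, 2.70 and 2.80 FPKM in WT samples against 2.19, 2.50 and 3.67 FPKM in Cfp1-cKO samples (log2 fold change 0.06). For Adamts15 the values were 0.67, 0.73 and 1.70 FPKM in WT and 1.07, 1.56 and 1.62 FPKM in Cfp1-cKO samples (log2 fold change 0.28), where WT 3 was the highest of all 6.

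The remaining 21 genes had a mean below 1 FPKM, and 14 of them were under 0.5 FPKM in every library. Adamts8, Adamts14, Adamts17 and Mmp19 reached 1 FPKM in 1 library or more. Adamts17 was at 0.28, 0.25 and 0.48 FPKM in WT samples against 0.63, 1.55 and 0.97 FPKM in Cfp1-cKO samples, without an overlap. Mmp19 was at 0.50, 0.59 and 0.69 against 0.74, 1.27 and 0.94 FPKM, also without an overlap, and it shares 22.3% of its exon bases with Tmem198b on the other strand. Adamts8, which lies 20.1 kb from Adamts15, was at 0.64, 0.44 and 1.00 against 0.72, 1.57 and 1.16 FPKM, and Adamts14 was at 0.37, 0.39 and 0.63 against 0.72, 1.08 and 0.49 FPKM, and in both the genotypes overlapped. Loxl4, the fifth lysyl oxidase, was at 0.084, 0.063 and 0.22 FPKM in WT samples against 0.48, 0.50 and 0.45 FPKM in Cfp1-cKO samples, so every Cfp1-cKO value was above WT at a low level. In a fit with no filter its log2 fold change was 0.39 (adjusted p = 0.0377, limma), under the fold threshold on this scale.

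The collagenases Mmp8 and Mmp13 and the macrophage elastase Mmp12 were low in both genotypes. Mmp8, stored by neutrophils, was between 0.0916 and 0.744 FPKM with overlapping genotypes. Mmp12 was at 0.018, 0.25 and 0.023 FPKM in WT samples against 0.15, 0.25 and 0.25 FPKM in Cfp1-cKO samples, where WT 2 was as high as the Cfp1-cKO libraries. Mmp13 was at or below 0.0659 FPKM in WT samples against 0.25, 0.25 and 0.12 FPKM in Cfp1-cKO samples, which did not overlap. Adamts20, Mmp24 and Mmp25 were also higher in every Cfp1-cKO library at levels of at most 0.245 FPKM. Mmp24 had 1, 0 and 1 fragments in WT samples against 2, 4 and 4 in Cfp1-cKO samples. Mmp25 had 0, 1 and 1 against 5, 7 and 6, so the order of both rests on few fragments. Mmp24 shares 637 exon bases (13.6%) with BC029722 on the other strand. BC029722 was at 3.02 to 5.43 FPKM in WT and 7.76 to 8.97 FPKM in Cfp1-cKO libraries, and its part in the Mmp24 fragments was not tested. Together 7 of the 21 genes (33.3%) had all Cfp1-cKO values above WT, beside 23.9% of all genes below the filter with a value above 0. Adamts4, Mmp16, Mmp17 and Mmp27 overlapped between the genotypes. Adamts13, Adamts16, Adamts18, Mmp10 and Mmp21 had at most 10 fragments in any library and overlapped between the genotypes. Such counts show little about a difference either way.

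**Figure D4:**
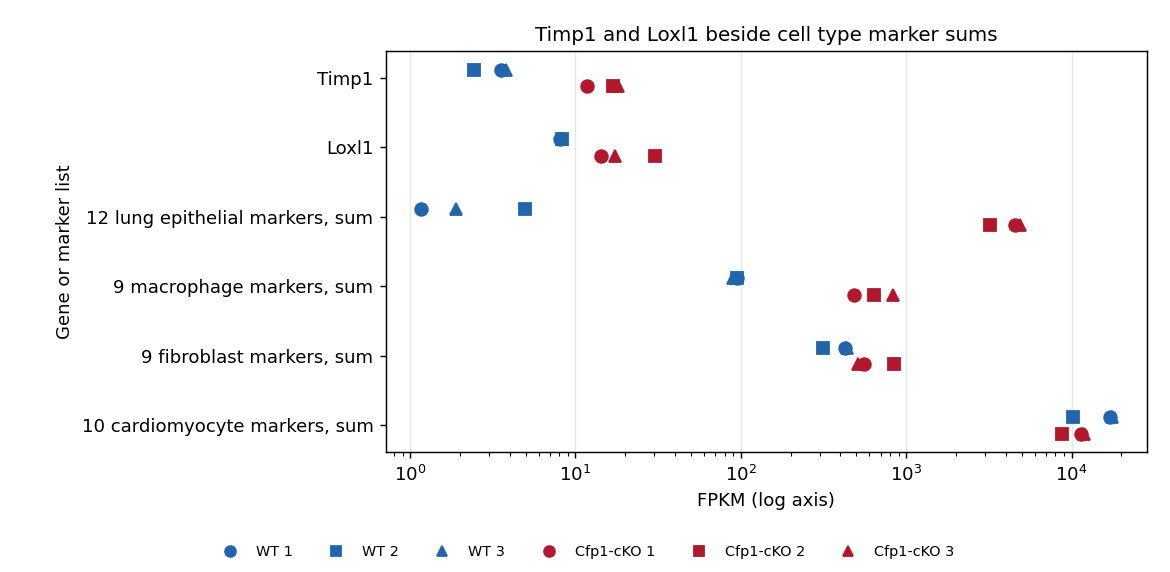
FPKM (log axis) of Timp1 and Loxl1 beside the summed FPKM of 4 marker lists, with 1 point for each library (blue WT, red Cfp1-cKO, marker shape for the replicate number). Lung epithelial markers differ most, from 1.16 to 4.92 in WT to 3235 to 4907 in Cfp1-cKO libraries. Most of the difference in the macrophage sum is Lyz2. The fibroblast sum and Loxl1 are both highest in Cfp1-cKO 2, as are the mesothelial and endothelial sums, which are not plotted.

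Genes that work with these enzymes were compared through 4 lists of 108 genes in the table, 79 of them tested. Of these 35 were called higher (44.3%, beside 21.1% of all tested genes) and 0 lower with limma, with 0 lower at an unadjusted p below 0.05 and 0 with voom. After scaling 9 were called higher (11.4%, beside 3.74%). The lists were chosen with earlier results of these data known, so the shares are a description. Of the genes called higher, Plau, P3h2 and Comp averaged 0.178, 0.577 and 0.6905 FPKM in WT samples. They passed the filter only through their Cfp1-cKO values.

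Activators and inhibitors of the proteases gave 5 calls higher among 20 tested, with a median log2 fold change of 0.48. This count is near the share of 21.1% of all tested genes called higher. After scaling 2 of the 20 were called, beside 3.74% of all tested genes, and the median was 0.096. Adamtsl2, an Adamts-like protein without protease activity that binds fibrillin and latent TGF-beta binding protein, was at 1.70, 1.29 and 2.76 FPKM in WT samples against 8.69, 9.79 and 7.29 FPKM in Cfp1-cKO samples. All 3 Cfp1-cKO values lay well above WT, and its log2 fold change of 1.74 (adjusted p = 0.00243, limma) remained a call after scaling, at 1.40 (adjusted p = 0.00838, limma). Adamtsl5 rose by 1.28 (adjusted p = 0.032, limma) and Plau, the urokinase that turns plasminogen into plasmin, by 1.23 (adjusted p = 0.0172, limma), Plau from 0.11, 0.11 and 0.31 FPKM to 1.82, 2.87 and 0.92 FPKM. After scaling Plau was still called, at 1.07 (adjusted p = 0.0441, limma), and Adamtsl5 was not, at 0.99 (adjusted p = 0.145, limma).

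Other matrix proteases gave 8 calls higher among 18 tested, beside 21.1% of all tested genes, with a median of 0.53. After scaling 4 of the 18 were called, beside 3.74% of all tested genes. Adam19, a membrane-held shedding protease, differed by 1.57 (adjusted p = 0.00499, limma). The lysosomal cathepsins Ctsz and Ctss, the latter best known from macrophages and other antigen-presenting cells, differed by 1.43 (adjusted p = 0.00265, limma) and 1.39 (adjusted p = 0.0107, limma). Ctss was at 13.4, 16.5 and 9.28 FPKM in WT samples against 26.2, 40.5 and 40.4 FPKM in Cfp1-cKO samples, beside the macrophage marker sums given above for those libraries, whose part was not tested. After scaling Adam19 and Ctsz were still called and Ctss was not.

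Genes of collagen and elastin maturation gave 17 calls higher among 32 tested, beside 21.1% of all tested genes, with a median of 0.86. Elastin itself, Eln, a substrate of the lysyl oxidases, was at 40.9, 24.8 and 56.1 FPKM in WT samples against 112, 387.8 and 134.7 FPKM in Cfp1-cKO samples. Like the 4 tested lysyl oxidases it was highest in Cfp1-cKO 2, and its log2 fold change was 2.198 (adjusted p = 0.0178, limma). Mfap4, a microfibril-associated protein, differed by 2.07 (adjusted p = 0.0194, limma), and P4ha1, a prolyl hydroxylase of collagen, by 1.26 (adjusted p = 0.0148, limma). After scaling these 3 were not called, and 1 gene of the list was, P3h2 (named after its values were seen).

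Proteoglycans and glycoproteins that the Adamts proteases and Mmps cleave gave 5 calls higher among 9 tested, with a median of 1.095. Of all tested genes 21.1% were called higher. Bgn, the small proteoglycan biglycan, was at 17.6, 10.6 and 24.2 FPKM in WT samples against 52.3, 76.4 and 50.1 FPKM in Cfp1-cKO samples, with a log2 fold change of 1.76 (adjusted p = 0.00851, limma). Vwf, von Willebrand factor, differed by 1.15 (adjusted p = 0.0167, limma) while Adamts13, the protease that cleaves it, was at or near 0 in all libraries. Agrn, the heparan sulphate proteoglycan agrin, differed by 1.14 (adjusted p = 0.00565, limma). Bgn and Agrn were still called after scaling.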

How the data were processed

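Heart RNA of 6 mouse samples, 3 WT and 3 Cfp1-cKO, was sequenced, and the authors deposited FPKM values per gene, the fragments of a gene divided by its exon length and the library's total. In the paper the authors name Bowtie2, TopHat and DESeq. Per the labels, the authors' processing notes list GRCm38, CASAVA, Bowtie2 2.2.3, TopHat2, HISAT2 2.1.0, HTSeq 0.6.0 and DESeq2, with no order given. Whether counting used strand is not given in the sources used here. The library preparation text describes retinas while tissue, title and paper say heart, and the paper gives the address of a chicken genome.

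Library totals were set so that the commonest product of FPKM and GENCODE gene length among low genes was 1 fragment. With these totals FPKM were whole multiples of 1 fragment (tolerance 0.02 of a fragment) for 26879 of 26881 genes. The gene lengths of GENCODE release 21 for mouse gave whole fragments for 23978 genes, among them 39 of the 47 genes reported. For 2901 others the shortest length that gave whole fragments was searched for and used. Coordinates are those of the deposited table on GRCm38. FPKM are not counts, so limma 3.58.1 in R 4.3.3 was fitted on log2(FPKM + 1) with a trend in the prior variance, over the 11017 genes whose FPKM averaged 1 or more in the 6 libraries, and p-values were adjusted (Benjamini-Hochberg) over all of them. A call needed an adjusted p under 0.05 and a log2 fold change beyond 0.5 either way. The fit was tested on simulated data without a shift over all genes, so that test does not bear on the choice of scaling. Every tested gene of the 4 families is named with its values. Genes below the filter are named, with each library's value for those reaching 1 FPKM and for Loxl4, Mmp12 and Mmp13, the latter added after their values were seen. Of each list of related genes the 3 called genes with the largest rise are named, with P3h2 and Comp added after their values were seen. The families and lists were chosen with earlier results of these data known. Alternatives covered the pseudocount, the filter, median-of-ratios scaling, removal of mitochondrial and haemoglobin genes, the variance trend, library weights, voom on recovered fragments, a block for the replicate number, another fold threshold and each library left out in turn. Python 3.11.15 with pandas 2.3.3, numpy 2.4.6 and matplotlib 3.10.9 made the tables and plots.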

Additional observations from a re-analysis of the deposited data

How the results depend on the processing

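Of the 26 tested genes of the 4 families, Timp1 kept its call under all 15 alternatives of the fit, and no log2 fold change of a called gene changed sign. The 7 genes called higher became 4 with no filter, 1 after median-of-ratios scaling, 16 with library weights and 4 at a log2 fold change above 1, and 2 to 10 with each library left out in turn. The count called lower, 0, became 1 (Adamts7) with library weights and 0 to 1 with each library left out. Genes that work with them, 35 called higher, became 22 with no filter, 9 after scaling, 58 with library weights and 22 at a log2 fold change above 1, and 9 to 44 with each library left out. Over all genes the 2510 calls became 1609 with no filter, 770 after scaling, 1559 without mitochondrial and haemoglobin genes, 4399 with library weights and 743 at a log2 fold change above 1, and 502 to 2815 with each library left out. The lowest counts were without Cfp1-cKO 2 for all genes (502) and for related genes (9), and without WT 1 for the 4 families (2). The causes of these changes were not tested.

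With the replicate number as a block 1749 genes were called, 5 of the 4 families and 24 related genes, and 0 lower in the families or the related genes. Of the 7 called genes Adamts2, Loxl2 and Mmp23 were not called with the block (adjusted p = 0.0537, 0.0754 and 0.0663, limma), and Lox was (adjusted p = 0.0353, limma). The pairing is only a shared number, since deviations from the group means of same-numbered libraries correlated at 0.11, 0.04 and 0.10 over 11017 genes, although each library correlated best with its own number.

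Scaling set the summed FPKM in WT and Cfp1-cKO samples to means of 60.4 and 70.6 for Mmp (52.0 and 83.6 as deposited), 64.2 and 78.4 for Timp (55.5 and 91.7), 45.5 and 52.5 for Adamts (39.2 and 61.5) and 25.6 and 39.6 for Lox genes (22.0 and 46.9). Depth limits the 21 genes below 1 FPKM most. The lung epithelial and macrophage signal in all 3 Cfp1-cKO libraries cannot be told apart from the genotype here.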
